A study of Mus musculus with 8 samples.

Results

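The transcripts of the NF-κB subunits Nfkb1, Nfkb2, Rel, Rela and Relb were examined in mouse bone marrow neutrophils. The genes were taken by symbol from the count table, where they were 5 of 24421 genes, and all 5 were among the 12254 genes tested. The RNA sequencing asked how neutrophils that lack PAD4, the peptidylarginine deiminase encoded by Padi4, respond to R848, an agonist of TLR7. The cells came from 8-week-old mice of the C57BL/6 background, either wild type (WT) or Padi4-/- (Padi4 KO, a deletion of exon 1). They were isolated magnetically from the bone marrow of female mice and were left unstimulated or were treated over 6 h with R848 at 1 µg/ml. Each of the 4 groups (WT unstimulated, Padi4 KO unstimulated, WT R848, Padi4 KO R848) had 2 libraries. The labels do not say that these came from separate mice, so the p-values measure only the spread between libraries, which may be technical. The sample titles give 0 h for the unstimulated cells and the treatment protocol gives 6 h. If the titles hold, each R848 response given here also includes 6 h in culture.

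NF-κB is a family of dimeric transcription factors that share a Rel homology domain. Nfkb1 and Nfkb2 encode the precursors p105 and p100, which are processed to the DNA-binding subunits p50 and p52, whereas RelA, c-Rel and RelB carry transactivation domains. Inhibitors of the IκB family hold the dimers in the cytoplasm. In the canonical arm, Toll-like receptors act through MyD88 and the IKK complex to release dimers such as p50 with RelA or c-Rel, and in the non-canonical arm the kinase NIK, encoded by Map3k14, leads to the processing of p100 and to dimers of p52 with RelB. Several subunit genes carry κB sites in their own promoters. RNA counts measure neither the processing of the precursors nor the location of the proteins.

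In the GENCODE annotation of build GRCm38, Nfkb1 lies on the minus strand at chr3:135584655-135691547 and Nfkb2 on the plus strand at chr19:46304320-46312385. Rela lies on the plus strand at chr19:5637483-5648130, Rel on the minus strand at chr11:23736847-23770970 and Relb on the minus strand at chr7:19606217-19629438. Exons of Nfkb2 overlap exons of the coding gene Psd by 299 bp and of the noncoding gene AC114539.1 by 531 bp, both on the opposite strand. The strand setting of the counting is not given in the sources used here, so reads from these stretches cannot be told apart, and the counts of Nfkb2 are to that extent uncertain. Psd had 0 to 8 counts in the unstimulated libraries and 12 to 37 after R848, against 23 to 37 and 400 to 642 for Nfkb2.

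Promoter sequence from RefSeq (build GRCm38.p6) was searched for the κB motif, a consensus of 10 letters read on both strands, in the 250 bases before each annotated start site. Windows were given for 3 of the subunits, Nfkb2 (with more than 1 start site), Rel and Rela, and 4 of these 5 windows held a match. The windows of Nfkb2, of which 2 overlap in part, were 3 of the 4, so by gene Nfkb2 and Rel held a match and Rela did not. Over all windows of that length, 1281 of 32851 (3.9%) held a match, and over all genes 1204 of 27025 (4.46%). The matches are printed because the members rose together after R848, 5′ to 3′ on the strand of the gene, with the letters of the match in capitals. In Rel and in the first Nfkb2 stretch, a pair of overlapping matches fills the capitals. The window of Rela held no match, and Nfkb1 and Relb are named only. The Nfkb2 stretches lie in exons of other annotated transcripts. A match is a description of the letters and not evidence that a factor binds there.
Rel, chr11:23771042-23771071, minus strand: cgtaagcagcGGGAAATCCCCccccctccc
Nfkb2, chr19:46304688-46304717, plus strand: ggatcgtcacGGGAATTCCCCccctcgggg
Nfkb2, chr19:46304716-46304736, plus strand: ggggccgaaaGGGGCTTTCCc
Nfkb2, chr19:46305449-46305478, plus strand: tccgacggcaGGAATGTCCCcacaaaagcc
Nfkb2, chr19:46305695-46305724, plus strand: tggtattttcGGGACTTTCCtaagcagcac

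The libraries held 562446 to 1177972 counts on genes, so that 3 counts correspond to between 2.55 and 5.33 CPM (counts of a gene relative to all counts on genes in its library). Padi4 had 527 and 590 counts in unstimulated WT cells and 40 and 54 in Padi4 KO cells, and after R848 it had 166 and 234 counts against 21 and 34. The labels of the genotypes were thus matched by the targeted gene, although reads from exons outside the deletion can still be counted. Of 15 neutrophil markers, 14 were analysed here (Ly6g was not), none was at 0, and together they held between 125500 and 169800 CPM of each library total. Their sum was lower in Padi4 KO libraries, with 133800 to 135300 CPM against 164100 to 169800 in unstimulated WT and 125500 to 126200 against 154300 to 166900 after R848. Erythroid markers summed to 58.7 to 74.9 CPM in unstimulated WT, 666 to 694 in unstimulated Padi4 KO, 23.9 to 47.5 in WT after R848 and 942 to 966 in Padi4 KO after R848, with Hba-a1, Hbb-bs and Hbb-bt at 0 throughout. Monocyte and macrophage markers summed to 1438 to 1529 CPM in unstimulated WT, 2014 to 2020 in unstimulated Padi4 KO, 3299 to 3437 in WT after R848 and 3440 to 3516 in Padi4 KO after R848. Within that list the genes moved in opposite directions after R848, and the rise of the sum lay in Adgre1 (39.1 to 2443 TMM-scaled CPM in WT, group means) and Csf1r (144 to 942), whereas Ly6c2 (1025 to 584), F13a1 (177 to 53.7) and Ccr2 (57.2 to 27.5) were lower. Stromal and endothelial markers summed to 201 to 229 CPM in unstimulated WT, 523 to 663 in unstimulated Padi4 KO and 32.9 to 47.6 after R848. The part of these cells in the responses was not tested. Markers of dendritic, T and NK, B, eosinophil, basophil and mast cells stayed at or below 182 CPM, and Ebf1, Cd3e, Cd2, Klrb1c and Ear2 were at 0. In bulk RNA, fewer cells of a type and less RNA per cell cannot be told apart.

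All 5 subunits rose after R848 in both genotypes. Nfkb2 and Relb, the pair whose products form the p52 and RelB dimer, rose most, by 20.5-fold in WT and 20.45-fold in Padi4 KO for Nfkb2 and by 35.7-fold to 50.6-fold for Relb. Nfkb1, Rel and Rela rose by 2.115-fold to 3.92-fold. Levels below are CPM scaled by TMM factors (trimmed mean of M values, edgeR), as mean ± SD (n = 2). Genes past a false discovery rate of 0.1 with a change of more than 2-fold count as responding, which was the case for 7.17% of all genes tested (higher) and 10.8% (lower) in WT and for 8.07% (higher) and 8.84% (lower) in Padi4 KO. DESeq2 also called all 5 subunits higher in both genotypes.

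**Figure D1:**
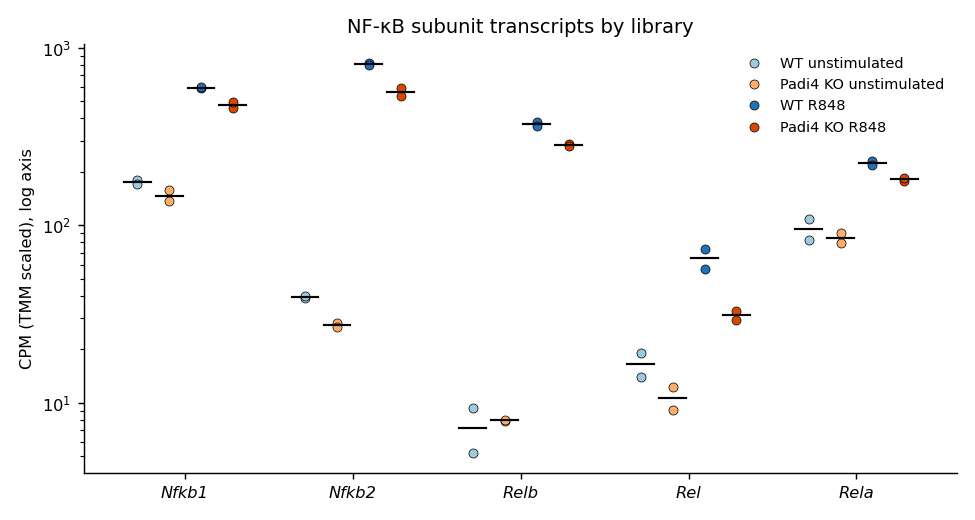
TMM-scaled CPM of each subunit on a log axis, with 1 point per library, horizontal bars for the group means and colours for the 4 groups. The 2 libraries of each R848 group lie above the unstimulated libraries of the same genotype for all 5 genes, from 218 to 230.3 CPM against 82.9 to 108 for Rela in WT to 363 to 381 CPM against 5.18 to 9.28 for Relb in WT.

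Among the precursors, Nfkb1 had 179 and 171 CPM in unstimulated WT cells and 595 and 598 CPM after R848, and in Padi4 KO cells 157 and 136 CPM and then 457 and 495 CPM. The unstimulated and stimulated libraries did not overlap in either genotype, and the libraries of a group differed by much less than the response. The log2 fold change was 1.77 (95% interval 1.52 to 2.02) in WT and 1.71 (1.499 to 1.93) in Padi4 KO, with adjusted p = 6.046e-46 and 2.057e-57 in the quasi-likelihood test of edgeR after Benjamini-Hochberg adjustment. Nfkb2, which makes the p100 precursor of the non-canonical arm, had 38.7 and 39.7 CPM in unstimulated WT and 815 and 795 CPM after R848, and in Padi4 KO 28.3 and 26.8 CPM and then 538 and 590.0 CPM. Per kilobase, Nfkb2 was below Nfkb1 in every unstimulated library and above it in every stimulated one. Its log2 fold change was 4.36 (3.93 to 4.78) in WT and 4.35 (3.98 to 4.73) in Padi4 KO, with adjusted p = 4.315e-167 and 1.029e-202 from the same edgeR test.

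Among the subunits with a transactivation domain, Rela, which encodes the main partner of p50, had 108 and 82.9 CPM in unstimulated WT and 230.3 and 218 CPM after R848. In Padi4 KO it had 79.1 and 90.0 CPM and then 179 and 184 CPM. Its response was the smallest of the 5 and close to the 2-fold threshold, with log2 fold changes of 1.22 (0.88 to 1.55) in WT and 1.08 (0.81 to 1.35) in Padi4 KO (adjusted p = 7.209e-12 and 3.89e-14, quasi-likelihood test of edgeR after Benjamini-Hochberg adjustment). With library size alone as the scaling, it was 0.91 in WT and 0.70 in Padi4 KO, in both cases under 2-fold. The Padi4 KO response was also under 2-fold with relative log expression factors (0.997), thinned counts (0.94) or without either WT R848 library (0.95).

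Rel, which encodes c-Rel, had the lowest level per kilobase of the 5 subunits in every stimulated library. It had 9 and 11 counts (13.9 and 18.99 CPM) in unstimulated WT and 36 and 32 counts (73.4 and 56.7 CPM) after R848, and in Padi4 KO 8 and 17 counts (9.04 and 12.3 CPM) and then 37 and 32 counts (32.9 and 29.4 CPM). The groups did not overlap, but the few counts left wide intervals, with log2 fold changes of 1.97 (1.24 to 2.71) in WT and 1.49 (0.81 to 2.16) in Padi4 KO (adjusted p = 9.701e-08 and 3.285e-05, quasi-likelihood test of edgeR after Benjamini-Hochberg adjustment).

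Relb, which encodes the partner of p52, stood near the limit of detection without stimulation, with 6 and 3 counts (9.28 and 5.18 CPM) in WT and 7 and 11 counts (7.91 and 7.98 CPM) in Padi4 KO. After R848 it had 187 and 205 counts (381 and 363 CPM) in WT and 322 and 306 counts (286 and 281 CPM) in Padi4 KO. The lowest stimulated library was far above the highest unstimulated one in each genotype. The ratio of the scaled group sums was 50.6 (95% counting interval 26.4 to 111) in WT and 35.7 (22.4 to 60.6) in Padi4 KO. These intervals cover counting error only. The log2 fold change was 5.63 (4.69 to 6.58) in WT and 5.13 (4.45 to 5.81) in Padi4 KO, with adjusted p = 9.905e-103 and 4.727e-134 from the same edgeR test.

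**Figure D2:**
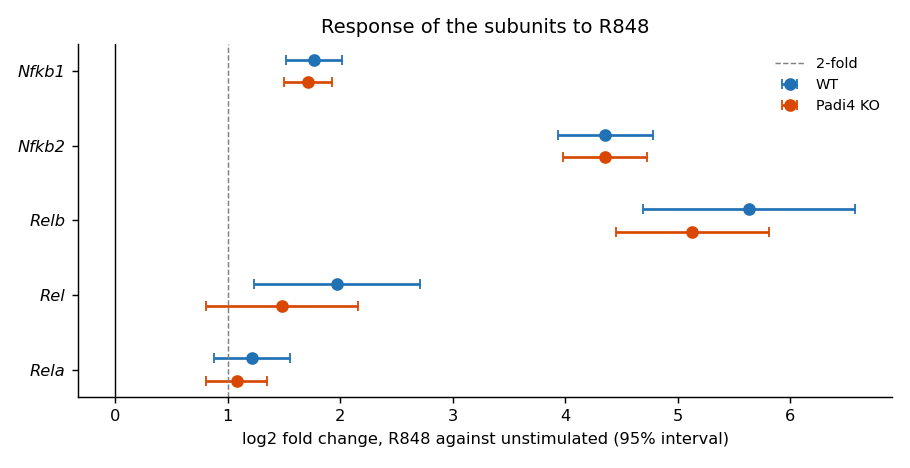
Log2 fold change of each subunit in R848 against unstimulated neutrophils on the horizontal axis, with points for WT and Padi4 KO, 95% intervals as bars and a dashed line at 2-fold. Relb (5.63 and 5.13) and Nfkb2 (4.36 and 4.35) lie apart from Rel, Nfkb1 and Rela, whose values run from 1.08 to 1.97.

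The order of the responses was Relb, Nfkb2, Rel, Nfkb1 and Rela in WT. Relb exceeded Nfkb2 by 1.28 on the log2 scale (95% interval 0.24 to 2.31), Nfkb2 exceeded Rel by 2.38 (1.54 to 3.23), and Nfkb1 exceeded Rela by 0.55 (0.13 to 0.97). Rel and Nfkb1 did not differ beyond their error, with a difference of 0.21 (-0.57 to 0.98). In Padi4 KO cells, the interval of Relb over Nfkb2 reached down to 0.0025 with a difference of 0.78, Nfkb2 exceeded Nfkb1 by 2.64 (2.21 to 3.07), and neither Nfkb1 and Rel (0.23, -0.48 to 0.94) nor Rel and Rela (0.40, -0.33 to 1.13) differed beyond error. Nfkb1 exceeded Rela there by 0.63 (0.28 to 0.98). These intervals combine the standard errors of both genes and are not adjusted. Among the 6912 genes with at least 10 counts on average, the WT response of Relb ranked 37, that of Nfkb2 62, of Rel 289, of Nfkb1 345 and of Rela 601 from the top. The ranks in Padi4 KO were 36 for Relb, 51 for Nfkb2, 337 for Nfkb1, 409 for Rel and 673 for Rela.

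The unequal responses changed the make-up of the subunit transcripts. Levels were compared between genes only as CPM per kilobase of exon, with the union of annotated exons as the length. On that scale, Rela made up 50.2% to 58.4% of the summed level of the 5 subunits in the unstimulated libraries and 17.9% to 19.96% after R848. Nfkb2 went from 11.7% to 16.1% of that sum to 40.3% to 43.9%, and Relb from 2.48% to 4.23% to 23.7% to 25.3%. For each of these 3 genes, the unstimulated and stimulated ranges were far apart and both genotypes were within them. Nfkb1 went from 22.5% to 27.0% of the sum to 12.03% to 13.4%, and Rel from 2.51% to 4.74% to 1.29% to 2.40%. With the longest transcript, the ranges of Rel overlapped (1.55% to 2.95% and 0.92% to 1.73%). The order of Nfkb1 and Rela depended on the length used: with the longest transcript of each gene (4149 bp in place of 12061 bp for Nfkb1), Nfkb1 made up 42.7% to 48.6% without stimulation and was above Rela in all unstimulated libraries but Padi4 KO replicate 2, where Nfkb1 was at 42.66% and Rela at 42.98%. Nfkb2 was the largest after R848 with either length, at 34.3% to 37.6% with the longest transcript.

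**Figure D3:**
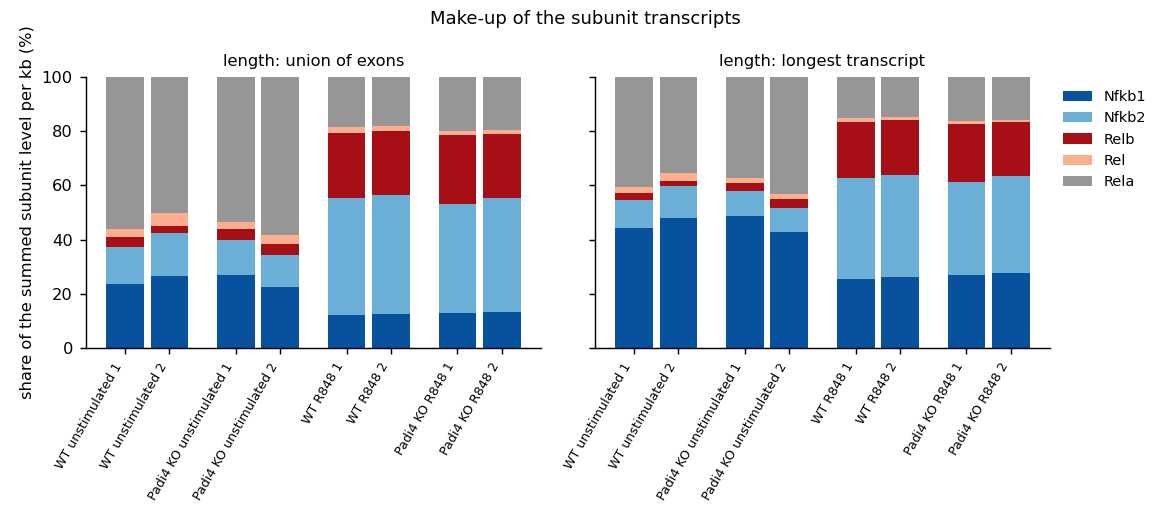
Share of each subunit in the summed level of the 5 subunits per kilobase (%), with 1 stacked bar per library, on the left with the union of exons as gene length and on the right with the longest transcript. Nfkb2 and Relb widen after R848 in both panels, whereas the order of Nfkb1 and Rela without stimulation differs between the panels in every library but Padi4 KO replicate 2.

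Ratios of counts within a library do not depend on its depth or scaling. The ratio of Nfkb2 to Nfkb1 counts was 0.18 to 0.232 in the unstimulated libraries and 1.18 to 1.37 after R848, and that of Relb to Rela was 0.0625 to 0.1 and then 1.53 to 1.67. These are ratios of raw counts of genes of unequal length, so a ratio of 1 does not mark equal levels, and it is their change between libraries that can be read. The stimulated and unstimulated libraries did not overlap in either ratio. After R848, the ratio of Nfkb2 to Nfkb1 was 1.37 and 1.33 in WT and 1.18 and 1.19 in Padi4 KO, and that of Rel to Rela was 0.319 and 0.26 in WT and 0.184 and 0.16 in Padi4 KO. Neither ratio overlapped between the genotypes, but with 2 libraries against 2 an exact permutation test (two-sided) cannot go below p = 0.333.

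The responses were then compared between the genotypes, that is, as the response in Padi4 KO neutrophils minus the WT response on the log2 scale. None of the 5 subunits passed a false discovery rate of 0.1. Of all genes tested, 4.71% did (3.45% higher and 1.26% lower), so that a count of 0 among 5 lies near the background and is not a result about the subunits. That balance was the reverse in other settings, with 35 genes higher and 90 lower in DESeq2, 160 and 233 with relative log expression factors and 52 and 264 with thinned counts. No subunit had an unadjusted p below 0.05 in edgeR, and DESeq2 called 0 of the 4 to which it gave an adjusted p, which Rel lacked. The differences were -0.05 for Nfkb1 (95% interval -0.38 to 0.27), -0.0018 for Nfkb2 (-0.57 to 0.56), -0.14 for Rela (-0.57 to 0.30), -0.49 for Rel (-1.49 to 0.51) and -0.50 for Relb (-1.67 to 0.66). With thinned counts, the difference for Nfkb1 was -0.43, beyond the interval given. For Rel and Relb, with few counts in unstimulated cells, the intervals were wide. Leaving out a library moved the value of Rel to between -0.90 (without WT R848 replicate 2) and -0.21 (without Padi4 KO unstimulated replicate 2). That of Relb moved to between -0.99 and -0.17 (without WT unstimulated replicate 1 and 2). Neither difference was called, and what size could be detected with these libraries was not tested.

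The levels of Padi4 KO and WT cells were compared with the same libraries, so these values are not independent of the responses. Without stimulation, edgeR called 0 of the 5 subunits at a false discovery rate below 0.1, against 23.9% of all genes tested (14.4% lower and 9.55% higher). Nfkb1 was the 1 subunit with an unadjusted p below 0.05, and DESeq2 called 0. The log2 fold changes were -0.27 for Nfkb1 (95% interval -0.54 to -0.0027), -0.51 for Nfkb2 (-1.05 to 0.025), -0.56 for Rel (-1.42 to 0.31), -0.17 for Rela (-0.52 to 0.18) and 0.11 for Relb (-1.03 to 1.26). The libraries of Nfkb1, Nfkb2 and Rel did not overlap between the genotypes, and those of Rela and Relb did. How many of all genes did not overlap was not counted, so nothing is read from this.

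After R848, 4 of the 5 subunits were lower in Padi4 KO neutrophils, against 7.81% of all genes tested that were called lower and 9.46% called higher (17.3% in all). Of all genes called there, 54.8% were higher, and 42.1% with relative log expression factors, 38.4% in DESeq2 and 81.8% with library size alone. All 5 subunits had an unadjusted p below 0.05 in edgeR, for which the share over all genes was not determined. DESeq2 called 4 of them, beside 1008 calls over all genes (387 higher and 621 lower). Rel showed the largest difference, with 31.1 ± 2.45 CPM (SD, n = 2) in Padi4 KO and 65.0 ± 11.8 in WT, a log2 fold change of -1.05 (95% interval -1.55 to -0.54, adjusted p = 0.0008731, quasi-likelihood test of edgeR after Benjamini-Hochberg adjustment). Nfkb2 was at 564 ± 37.1 CPM against 805 ± 14.3, a log2 fold change of -0.51 (-0.69 to -0.34, adjusted p = 3.505e-07, same edgeR test). Rel and Nfkb2 were 0.53 apart on the log2 scale (95% interval -0.00046 to 1.06, not adjusted), so they did not differ beyond error. Both kept their call under every alternative run. Relb was at 284 ± 3.43 CPM against 372 ± 12.8, a log2 fold change of -0.39 (-0.61 to -0.17, adjusted p = 0.0057, same edgeR test). Nfkb1 was at 476 ± 27.4 CPM against 597 ± 2.35, a log2 fold change of -0.33 (-0.51 to -0.14, adjusted p = 0.007048, same edgeR test). Rela, at 181 ± 3.70 CPM against 224 ± 8.86, did not pass, with a log2 fold change of -0.30 (-0.56 to -0.045, adjusted p = 0.1199, same edgeR test). The libraries of all 5 subunits did not overlap between the genotypes after R848. The share of all genes without overlap was not determined, and 2 libraries against 2 can separate without a difference.

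With library size alone as the scaling, 2 of the 5 subunits, Nfkb2 (-0.30, adjusted p = 0.009733) and Rel (-0.83, adjusted p = 0.01189), were lower in Padi4 KO after R848 in edgeR's test, and Nfkb1 (-0.11, adjusted p = 0.5197), Relb (-0.17, adjusted p = 0.3429) and Rela (-0.09, adjusted p = 0.7289) did not pass. That scaling moved the median of the 6912 genes with at least 10 counts on average by 0.214 in this comparison, and the TMM factors ran from 0.8043 to 1.251 over the libraries. Without Padi4 KO R848 replicate 1, Nfkb1 did not pass either (-0.27, adjusted p = 0.1506, edgeR). Rela passed as lower with a stricter filter, relative log expression factors, thinned counts or without WT R848 replicate 2. The erythroid and neutrophil marker sums given above also differed between the genotypes after R848, by 4.51 and -0.57 on the log2 scale with TMM factors, and their part in the result was not tested.

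**Figure D4:**
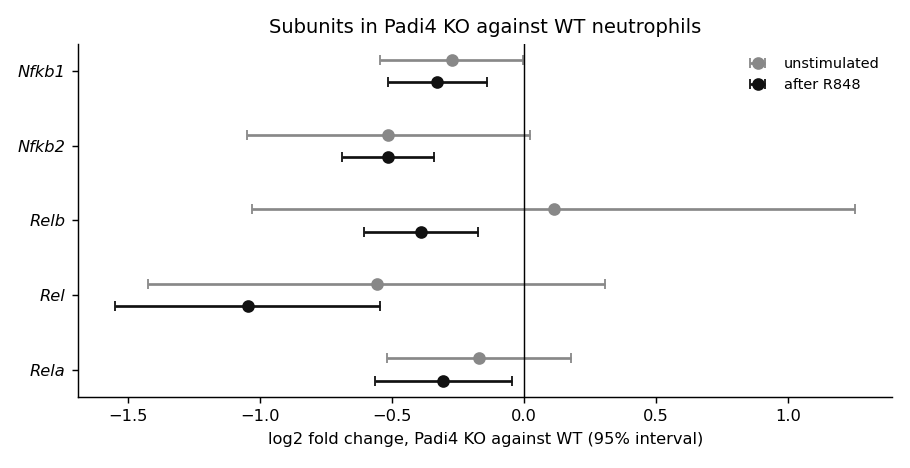
Log2 fold change of each subunit in Padi4 KO against WT neutrophils on the horizontal axis, with grey points for unstimulated cells, black points for cells after R848 and 95% intervals as bars. After R848 all 5 values lie below 0, from -1.05 for Rel to -0.30 for Rela. Without stimulation 4 of the 5 values also lie below 0. The intervals are wider there, and that of every subunit but Nfkb1 includes 0.

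For each subunit, the genes with the most similar pattern were sought among 6911 genes with at least 10 counts on average, by the root mean square distance between the 4 group means of log2 CPM after centring each gene. This is a description over 4 groups that share libraries. Nearest to Nfkb2 was Tnfaip3, which encodes the deubiquitinase A20, at a distance of 0.0703, followed by Nqo1 at 0.0916 and Slc39a4 at 0.106. Nearest to Relb were Adora2a, which encodes an adenosine receptor, at 0.11, Abcc1 at 0.127 and Mllt6 at 0.234. These means included a prior count of 2, which draws genes near 0 counts together. In the edgeR fit, Adora2a rose by 6.85 in WT and 6.64 in Padi4 KO on the log2 scale, and Relb by 5.63 and 5.13. Relb and Nfkb2 were 0.455 apart, with rank 36 among the genes nearest to Nfkb2. Nearest to Nfkb1 were Susd6 (0.0525), Rnf19b (0.0588) and Myo1c (0.0599), and nearest to Rela were Cd300a (0.0319), Foxn2 (0.0445) and Pttg1 (0.0449). Nearest to Rel were Rsad2, which encodes the antiviral protein viperin, at 0.0728, Zswim4 at 0.099 and Cd9 at 0.111.

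The other genes of the pathway were described by their roles, as counts of genes past the same rule in each list. The share to set beside a count of risen genes is 7.17% of all genes tested in WT and 8.07% in Padi4 KO. Among the inhibitors, all 6 IκB family genes tested rose after R848 in WT and in Padi4 KO, with median log2 fold changes of 2.51 and 2.37, beside -0.17 and -0.03 over all genes tested. Nfkbiz, an atypical nuclear member, had 34 and 33 counts in unstimulated WT and 316 and 331 after R848, a log2 fold change of 3.49 (95% interval 3.11 to 3.86). Nfkbia, which encodes IκBα, the classical inhibitor of RelA dimers, had 168 and 150 counts and then 560 and 701, a log2 fold change of 2.20 (1.99 to 2.41). Nfkbie, which encodes IκBε, and Bcl3, a partner of p50 and p52, rose by 2.42 and 2.95 in WT on the same scale. After R848, 4 of the 6 were lower in Padi4 KO than in WT (7.81% of all genes tested), Nfkbia, Nfkbie, Nfkbid and Nfkbiz (Nfkbid was chosen for naming with its value known), and with library size alone 3.

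Of the 6 deubiquitinases and adaptors that limit the pathway, 4 rose in each genotype, with median log2 fold changes of 2.84 in WT and 2.83 in Padi4 KO (2.01 and 2.83 with a gene at 0 set to its bound). Tnfaip3 had 14 and 19 counts in unstimulated WT and 265 and 291 after R848, a log2 fold change of 4.28 (95% interval 3.77 to 4.79). Tnip1, an adaptor of A20, rose by 4.09 and Otulin, a linear-ubiquitin deubiquitinase, by 1.59 in WT. In Padi4 KO, Otulin rose by 1.13 but was under 2-fold with library size alone (0.75), with thinned counts (0.84) and without either WT R848 library (0.9965). Tnip3, a relative of Tnip1, had 0 counts in every unstimulated library and 5 to 9 after R848 in WT and 31 to 51 in Padi4 KO, which is at least 5.42-fold and 27.9-fold higher against a floor of 3 counts per group.

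Upstream of the subunits, of the 13 genes from TLR7 to the IKK complex, 3 rose in each genotype, Irak3, Irak2 and Unc93b1. Of all genes tested, 7.17% rose in WT and 8.07% in Padi4 KO. The median log2 fold changes of the 13 genes were 0.59 in WT and 0.56 in Padi4 KO. Irak3, an inhibitory member of the IRAK family, went from 58 and 53 to 761 and 822 counts in WT, a log2 fold change of 4.05 (95% interval 3.76 to 4.34). Irak2, a signalling kinase, rose by 3.46, and Unc93b1, the chaperone of endosomal Toll-like receptors, by 1.13, which with library size alone was 0.83 and under 2-fold. Of the 12 IKK and upstream kinase genes, 4 rose in WT and 3 in Padi4 KO, with medians of 0.22 (-0.08 with library size alone) and 0.63. Ikbke, an IKK-related kinase, went from 23 and 25 to 960 and 1063 counts in WT, a log2 fold change of 5.61 (5.21 to 6.01). Map3k8, the p105-associated kinase TPL2, rose by 3.96, Ikbkg, which encodes the regulatory subunit NEMO, by 2.35 and Tbk1, a relative of Ikbke, by 1.39 in WT. In Padi4 KO, Tbk1 was at 0.92 and did not pass the 2-fold rule, though it passed without Padi4 KO unstimulated replicate 2 (1.203) or Padi4 KO R848 replicate 1 (1.02). The exons of Ikbkg overlap those of G6pdx by 418 bp on the opposite strand, and G6pdx had 396 to 1026 counts, so the counts of Ikbkg are uncertain.

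In the non-canonical arm, 2 of the 9 control genes tested rose in WT and 4 in Padi4 KO, beside 7.17% and 8.07% of all genes tested. Their median log2 fold changes were 0.81 and 0.79. The calls in WT were Birc3 and Traf2, and those in Padi4 KO were Birc3, Traf3 and the receptor genes Cd40 and Tnfrsf11a, both with 5 or fewer counts on average and chosen for naming with their values known. Birc3, a ubiquitin ligase for NIK, rose by 2.23 (95% interval 1.956 to 2.5) in WT and 2.30 (2.06 to 2.54) in Padi4 KO. Traf2 rose by 1.10 in WT, where it lost the 2-fold rule with library size alone (0.80) or without WT unstimulated replicate 1 (0.97) or WT R848 replicate 2 (0.83), and was at 0.79 in Padi4 KO. Traf3, which holds NIK for degradation, was at 0.81 in WT (1.14, past the rule, without WT R848 replicate 1) and rose by 1.35 in Padi4 KO, with library size alone to 0.98. Map3k14, which encodes NIK, was at -0.02 in WT and 0.03 in Padi4 KO, and Chuk and Ikbkb, which encode the catalytic subunits of the IKK complex, were at -0.06 and 0.04 in WT. These 3 genes did not pass the rule in either genotype and were chosen for naming with their values known.

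Counts of 0 or 1 in the next 3 lists lie near the share of all genes tested that rose (7.17% in WT and 8.07% in Padi4 KO) and are not results about the lists. Of the 8 genes of precursor processing tested, 0 rose and 2 fell in WT, and 1 rose and 0 fell in Padi4 KO by edgeR's rule. Of all genes tested, 10.8% fell in WT and 8.84% in Padi4 KO. The medians of the 8 genes were -0.41 and -0.08. Btrc, which encodes the ligase subunit βTrCP, fell from 8 and 14 to 3 and 1 counts in WT (log2 fold change -2.20, 95% interval -3.78 to -0.62), and its relative Fbxw11 rose by 1.23 in Padi4 KO and was at 0.92 in WT, or 1.04 and past the rule without either WT R848 library or with thinned counts, and 1.045 with models per genotype. Rnf123, a ubiquitin ligase linked to p105, fell by 1.47 on the log2 scale in WT. These calls are not firm: Btrc lost its call without WT unstimulated replicate 2 (-1.67) or WT R848 replicate 2 (-1.43), Rnf123 without WT unstimulated replicate 1 (-0.86), and Fbxw11 with library size alone (0.85). The exons of Rnf123 also overlap those of Gmppb by 937 bp. Of the 7 nuclear transport genes, 1 rose in each genotype, Kpna4, an importin α, by 1.23 in WT and 1.25 in Padi4 KO (0.92 and 0.87, under 2-fold, with library size alone). The medians of these genes were 0.37 and 0.05, the latter -0.32 with library size alone. The 16 cofactors and modifiers of RelA had medians of 0.0023 and 0.04, or -0.30 and -0.33 with library size alone, and 1 rose in each genotype. Rps6ka4, the kinase MSK2, rose by 1.53 in WT and 1.10 in Padi4 KO, the latter not past the rule with library size alone or thinned counts (0.72 in each) or without either WT R848 library (0.97). Kat2b, an acetyltransferase, fell by 1.12 on the log2 scale in WT, with no call without WT R848 replicate 1 (-0.77) or with models per genotype (-0.997), and was at -0.16 in Padi4 KO.

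Of 38 target genes tested, 30 rose in WT and 29 in Padi4 KO, 0 fell, and the median log2 fold changes were 3.53 and 3.21 (2.72 and 2.83 with genes at 0 in unstimulated cells set to their bound). Ccl4, a chemokine, had 2 counts over both unstimulated libraries of each genotype, and after R848 it had 130 and 151 in WT, then 260 and 328 in Padi4 KO. Traf1, an adaptor of TNF receptors, had 2 counts in unstimulated WT and 0 in unstimulated Padi4 KO, and 80 and 84 and then 120 and 136 after R848. Il12b, the p40 subunit of interleukin 12, and Ccl5, a chemokine, were at 0 in every unstimulated library. After R848, Il12b was at least 16.6-fold higher in WT and 23.9-fold in Padi4 KO, and Ccl5 at least 8.13-fold and 44.3-fold, against a floor of 3 counts per group. After R848, 21 of the 38 were lower in Padi4 KO and 1, Ccl5, was higher, beside 7.81% and 9.46% of all genes tested. With library size alone 14 were lower. Without stimulation, 10 were lower and 3 higher, beside 14.4% and 9.55% of all genes tested. The difference of response of the 38 had a median of 0.04, with 2 called higher and 6 lower. Among the 14 neutrophil markers, 12 were lower and 0 higher in Padi4 KO after R848. The part of cell make-up in these counts was not tested.

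**Figure D5:**
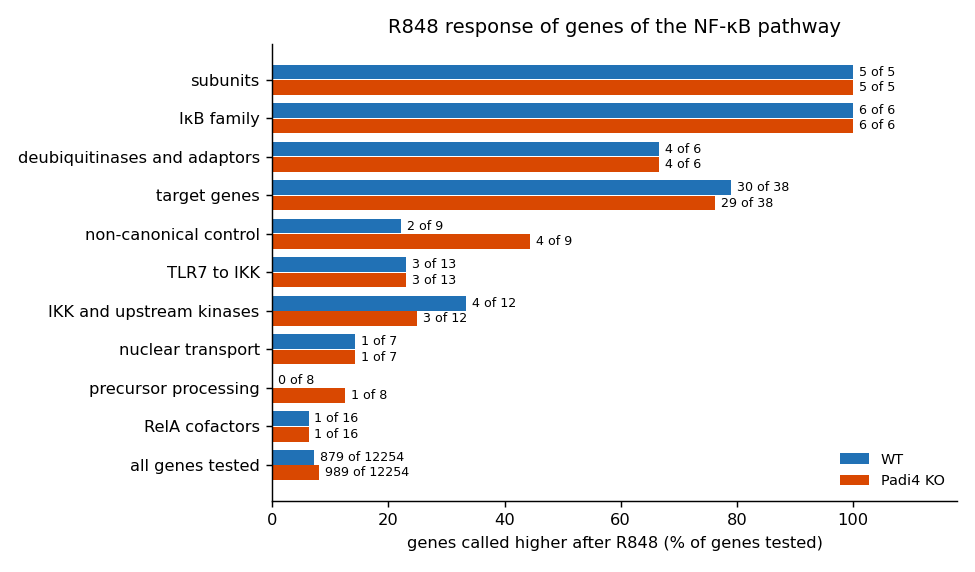
Percentage of the genes tested in each list that were called higher after R848 on the horizontal axis, with bars for WT and Padi4 KO and the counts beside them. The subunits (5 of 5), the IκB family (6 of 6) and the target genes (30 and 29 of 38) lie above all genes tested (7.17% and 8.07%). Some genes belong to more than 1 list.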

How the data were processed

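Neutrophil RNA was sequenced paired-end (TruSeq RNA v2, MiSeq). The authors deposited raw read counts per gene from HTSeq 0.6.1p1, after trimming with cutadapt 1.16 and alignment to mm10 with STAR 2.5.3a, per the submitters' processing notes and methods. The annotation and strand setting are not given in the sources used here. Between 87% and 89.4% of the counted reads of a library lay on genes, and the remaining rows, which name no gene, were left out.

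From these counts, genes with at least 1 count in at least 2 libraries (12254 of 24421) were fitted in edgeR 4.0.16 (R 4.3.3) over all 8 libraries, with TMM factors, 1 mean per group and robust quasi-likelihood tests. Responses were called at FDR below 0.1 and more than 2-fold, other contrasts at FDR below 0.1, with p-values adjusted over all genes tested. The contrasts share libraries. Intervals are 95%, from the negative binomial weights and the moderated dispersion. DESeq2 1.42.0, other filters and scalings, thinned counts, a replicate block, models per genotype and each library left out were alternatives. The scripts were tested on simulated data.

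The subunits and pathway lists were chosen with earlier results of these data known. From each list, up to 4 genes were named, those with the largest absolute log2 fold change averaged over the genotypes among genes with at least 10 counts on average and a called response, and likewise every gene whose response differed between the genotypes. The 3 nearest genes were named for each subunit. Replicate libraries of a group differed by more than sampling noise (chi-square per degree of freedom 1.05 to 1.67). Same-numbered libraries did not deviate together.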

Additional observations from a re-analysis of the deposited data

Results flagged for a closer look

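Of the 106 pathway list genes tested other than the subunits, 13 had an R848 response that differed between the genotypes at a false discovery rate below 0.1 in edgeR's quasi-likelihood test of the difference, as the Padi4 KO minus the WT response on the log2 scale. They are named here because they passed that test, and the lists were chosen with earlier results known, so nothing is read from their share against the 4.71% of all genes tested. No subunit was among them. A difference of response can lie in the unstimulated level, in the level after R848 or in both, so both comparisons of the genotypes are given, from the same libraries. For each gene, 15 alternatives were run.

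The difference was negative for 9 genes. For Il1b, which encodes a pyrogenic cytokine, it was -2.51 (adjusted p = 4.016e-57), with Padi4 KO against WT at 1.70 without stimulation and -0.80 after R848. For Cxcl2, a neutrophil chemokine, it was -1.97 (adjusted p = 1.921e-13), with 0.012, not called, and -1.96 in the same order. For Clec4e, a C-type lectin receptor, it was -0.69 (adjusted p = 0.0002301), with 0.11, not called, and -0.58, and for Tnfaip2 -0.68 (adjusted p = 4.34e-05), with 0.27 and -0.41. These 4 kept their call under all 15 alternatives. Among the atypical IκB genes, Bcl3 differed by -0.9991 (adjusted p = 0.0212), with 0.87 without stimulation and -0.12, not called, after R848, and Nfkbiz by -0.90 (adjusted p = 0.00611), with 0.33, not called, and -0.58. Each lost its call under 1 alternative. Irak2 differed by -0.79 (adjusted p = 0.0731), with -0.09, not called, and -0.88, and lost its call under 4 alternatives, DESeq2 among them. The importin genes did not pass the response rule in either genotype. Kpna2 differed by -0.75 (adjusted p = 0.0172), with responses of 0.80 in WT and 0.05 in Padi4 KO and Padi4 KO against WT at 0.87 without stimulation and 0.12, not called, after R848, and Kpnb1 by -0.64 (adjusted p = 0.0516), with responses of 0.37 and -0.27 and genotype comparisons of 0.80 and 0.15, the latter not called. Their calls were lost under 1 and 4 alternatives.

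The difference was positive for the other 4 genes, whose levels were lower in unstimulated Padi4 KO neutrophils. Nfkbia differed by 0.43 (adjusted p = 0.0797), with Padi4 KO against WT at -0.63 without stimulation and -0.20 after R848. Ikbkg differed by 0.75 (adjusted p = 0.0483), with -0.98 and -0.23, the latter not called. Gadd45b differed by 1.03 (adjusted p = 0.0499), with -1.03 and -0.0053, the latter not called. Setd7, a lysine methyltransferase, had responses of -0.61 in WT and 0.34 in Padi4 KO, neither past the response rule, a difference of 0.95 (adjusted p = 0.0238), with -0.57 without stimulation and 0.38, not called, after R848. These calls were lost under 11 alternatives for Nfkbia, 10 for Ikbkg, 10 for Gadd45b and 6 for Setd7, DESeq2 among them for each. Exons of Ikbkg overlap those of G6pdx.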

How the results depend on the processing

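With library size alone, the subunits called lower in Padi4 KO after R848 fell from 4 to 2, and those called in each R848 response from 5 to 4. After R848, Rela passed as lower in Padi4 KO with a stricter filter (adjusted p = 0.0958, edgeR), relative log expression factors, thinned counts or without WT R848 replicate 2. Leaving out each library in turn gave 3 to 5 calls there, 5 in the WT response, 4 to 5 in the Padi4 KO response and 0 in the other contrasts. The call lost in the Padi4 KO response was that of Rela, which fell under 2-fold without either WT R848 library (0.95), with relative log expression factors (0.997), library size alone or thinned counts (0.94).

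Values near 0 that had no call changed sign. Without stimulation, library size alone gave 0.014 for Nfkb1 and 0.12 for Rela, and leaving out a library gave -0.34 to 0.046 for Rela and -0.22 to 0.61 for Relb. With each library left out in turn, the differences of response ran from -0.32 to 0.023 for Nfkb1, -0.25 to 0.064 for Nfkb2 and -0.41 to 0.035 for Rela, and the Padi4 KO response of Kat2b from -0.29 to 0.042. Thinned counts gave differences of -0.43 for Nfkb1 and -0.37 for Nfkb2. The replicate numbers did not pair the libraries (correlations of deviations from -0.02 to 0.0199 over 6912 genes). With the replicate number as a block, the subunit calls were 5, 5, 0, 0 and 4 as without it, and the difference for Nfkb2 was 0.0053. The causes were not tested.

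Over all genes, the difference of response had 577 calls (73.3% higher), 125 in DESeq2, 316 with thinned counts, 393 with relative log expression factors and 286 to 466 with a library left out (327 and 286 without WT unstimulated and WT R848 replicate 1, 380 and 370 without Padi4 KO unstimulated and R848 replicate 2). Without stimulation, 2933 calls became 1061 in DESeq2 and 1938 without WT unstimulated replicate 1, and after R848, 2116 became 1008. The Padi4 KO response had 2072 calls, 1289 in DESeq2, and 4299 without the fold threshold, where the WT response had 3621 in place of 2207. The share of higher calls in the difference of response was 28.0% in DESeq2, 40.7% with relative log expression factors, 16.5% with thinned counts and 18.5% and 25.3% without WT R848 replicate 1 and 2, and 255 of 425 calls were higher with library size alone. Leaving out either of these 2 libraries also moved it to 50.5% and 52.5% in the WT response, 57.5% for both without stimulation and 39.9% and 38.5% after R848. Thinned counts moved it to 49.9%, 52.9% and 33.9% in the same contrasts, and DESeq2 to 53.0% in the WT response and 38.4% after R848. Library size alone moved the share of higher calls from 39.8% to 23.0% and 47.7% to 23.1% in the WT and Padi4 KO responses, 39.9% to 77.2% without stimulation and 54.8% to 81.8% after R848. It shifted the median of the 6912 genes with at least 10 counts on average by -0.304, -0.376, 0.285 and 0.214 in these 4 contrasts. Levels per kilobase of Nfkb1 depended on the length used.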
